A study of Homo sapiens with 8 samples.

Results

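HLA class I antigen presentation was followed through 9 genes out of the 25411 listed for each library. They were taken by name and are the class I heavy chains HLA-B, HLA-C, HLA-E and HLA-F, the light chain B2M, the peptide transporter subunits TAP1 and TAP2, and the inducible proteasome subunits PSMB8 and PSMB9. Each gene was sequenced in 8 RNA-Seq libraries from BEAS-2B, an immortalised human bronchial epithelial cell line, with 2 libraries in each of 4 groups. UT cells were untreated. Ni-E cells were grown with 100 µM NiCl2 for 6 weeks. Ni-W cells received the same exposure and were then grown up from an individual cell and cultured in nickel-free medium for more than 6 months, so that they stand for 1 clonal population. HCl3 cells carried the treatment description of Ni-W, but neither their time without nickel nor how they relate to Ni-W was stated. The mark experiment 2 stood on both Ni-E libraries and experiments 3 and 4 on those of HCl3, and UT and Ni-W had no such mark, so experiment and group cannot be told apart.

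Class I molecules display peptides from inside the cell at its surface, where CD8+ T cells and natural killer cells read them. Proteasomes cut proteins into peptides, and cells exposed to interferon replace the catalytic subunits of the constitutive proteasome with inducible ones, among them PSMB8 and PSMB9. TAP1 and TAP2 form the transporter that carries peptides into the endoplasmic reticulum. There a peptide is loaded onto a heavy chain that has paired with beta-2-microglobulin, the product of B2M. HLA-B and HLA-C are classical, highly variable heavy chains, while HLA-E presents mostly leader peptides of other class I chains to natural killer cells and HLA-F is a less variable, non-classical chain.

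Of the 9 genes, 8 lie in the major histocompatibility complex on chromosome 6 (hg19). HLA-F spans positions 29691118 to 29695073, HLA-E 30457184 to 30461982, HLA-C 31236527 to 31239913 and HLA-B 31321650 to 31324989. The other cluster holds TAP2 at 32793188 to 32806600, PSMB8 at 32808495 to 32812712, TAP1 at 32812987 to 32821748 and PSMB9 at 32821939 to 32827628. TAP1 and PSMB9 point away from each other with 191 bases between them. B2M lies apart, on chromosome 15 at 45003686 to 45010357. Values were given per gene, also where several transcripts of it were listed.

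The class I promoters are known for a shared block of upstream elements, and RefSeq (GRCh38.p14) gave an upstream sequence for 8 of the 9 genes (none for HLA-E). The 250 bases before the start are printed 5′ to 3′ for HLA-B, HLA-C, HLA-F, B2M and TAP2. These genes had an adjusted P value under 0.05 with DESeq2 in Ni-W and in HCl3 against UT, though not all passed 1.5-fold. The bases printed are those of the reference and were not read from BEAS-2B. HLA-B lies on the minus strand at chr6:31357180-31357429, HLA-C on the minus strand at chr6:31272093-31272342, HLA-F on the plus strand at chr6:29723184-29723433, B2M on the plus strand at chr15:44711267-44711516 and TAP2 on the minus strand at chr6:32838740-32838989. Capitals mark matches, on either strand, to the interferon-stimulated response element GAAANNGAAA, to the class I form of it GAAGTGAAA, to the CCAAT box CCAAT, to the CRE half-site TGACG, or to the NF-kappaB consensus.
HLA-B: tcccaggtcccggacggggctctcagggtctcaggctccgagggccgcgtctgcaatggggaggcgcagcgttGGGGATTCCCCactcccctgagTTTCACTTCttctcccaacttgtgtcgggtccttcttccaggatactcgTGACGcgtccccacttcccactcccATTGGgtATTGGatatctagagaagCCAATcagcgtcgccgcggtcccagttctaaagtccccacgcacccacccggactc
HLA-C: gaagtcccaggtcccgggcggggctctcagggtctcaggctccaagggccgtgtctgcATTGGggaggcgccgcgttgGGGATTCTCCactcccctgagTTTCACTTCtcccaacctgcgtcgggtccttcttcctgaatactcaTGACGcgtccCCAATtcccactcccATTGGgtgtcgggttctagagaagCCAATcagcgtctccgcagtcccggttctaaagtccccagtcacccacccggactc
HLA-F: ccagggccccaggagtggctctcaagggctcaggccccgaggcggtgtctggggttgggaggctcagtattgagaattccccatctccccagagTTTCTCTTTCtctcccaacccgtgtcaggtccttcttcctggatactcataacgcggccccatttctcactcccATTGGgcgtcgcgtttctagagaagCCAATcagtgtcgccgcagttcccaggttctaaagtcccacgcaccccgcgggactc
B2M: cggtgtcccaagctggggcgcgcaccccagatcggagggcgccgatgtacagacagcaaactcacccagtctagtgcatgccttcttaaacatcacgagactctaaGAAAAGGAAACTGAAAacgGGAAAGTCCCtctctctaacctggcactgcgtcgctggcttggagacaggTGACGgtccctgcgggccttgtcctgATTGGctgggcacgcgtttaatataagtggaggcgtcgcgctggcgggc
TAP2: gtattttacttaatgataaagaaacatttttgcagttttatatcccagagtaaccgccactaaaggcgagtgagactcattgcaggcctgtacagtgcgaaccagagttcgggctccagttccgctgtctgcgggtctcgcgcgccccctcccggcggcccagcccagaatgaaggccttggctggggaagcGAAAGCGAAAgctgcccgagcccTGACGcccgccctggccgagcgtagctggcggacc

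GAAANNGAAA was found upstream of 4 of the 8 genes (HLA-F, B2M, TAP1 and TAP2), against 3.02% of 35116 RefSeq upstream sequences of the same length. GAAGTGAAA, a form chosen after these sequences had been read, was found upstream of HLA-B and HLA-C and in 0.439% of all the upstream sequences. In HLA-B it ran from 155 to 147 bases before the start, and in HLA-C from 151 to 143, each time a few bases after a match to the NF-kappaB consensus. HLA-F held GAAANNGAAA at the corresponding place, from 156 to 147 bases before its start, and had no match to the NF-kappaB consensus or to TGACG. B2M held GAAANNGAAA 2 times, in matches that overlap, and TAP2 held it from 58 to 49 bases before its start. The NF-kappaB consensus was matched in 4 of the 8 genes and in 9.96% of all the upstream sequences. The CCAAT box was matched in 6 (32% of all) and TGACG in 6 (21.2% of all). A match says only that these letters are in the window.

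Reads per library numbered between 26383920 and 45692298, and the 9 genes together took between 0.183 and 0.3% of them. Levels are given as RPKM, a read count scaled to exon length and to library depth. All 9 genes were read in each library, from 120 reads for HLA-F in the second UT library upward. The order of the replicates was mostly shared by the 9 genes. All 9 had a higher RPKM in the first than in the second library of UT and of Ni-W, and all 9 were higher in the second library of Ni-E. In HCl3, 8 were higher in the second library and 1, B2M, in the first. The share of all genes with that order was not counted, so a shift of whole libraries cannot be told apart from one of the 9 genes. Of the epithelial markers, KRT18 lay between 144.5 and 245.2 RPKM, whereas EPCAM did not exceed 1.79 and CDH1 did not exceed 0.11. The 7 epithelial markers summed to 636 and 602 RPKM for UT, 794 and 579 for Ni-E, 972 and 947 for Ni-W, and 935 and 996 for HCl3, so that the Ni-W and HCl3 libraries lay above those of UT and Ni-E, as they did for HLA-B, HLA-F and B2M. Most of each sum was KRT7, KRT8 and KRT18. EPCAM did not follow it, with 1.17 and 1.26 RPKM for HCl3 beside 1.45 and 1.46 for Ni-E, nor did CDH1, with 0.05 and 0.07 beside 0.09 and 0.08. A gene was called when DESeq2 gave an adjusted P value under 0.05 and a change of at least 1.5-fold. Of the list's 6 genes tested, 2 were called higher for Ni-W and 3 for HCl3, and 0 of 5 for Ni-E. KRT7, a keratin of simple epithelia, rose by 0.81 log2 units in Ni-W and by 0.62 in HCl3, the latter 0.28 and not called once trends of fold change with GC content and gene length were removed. KRT19 had 0 and 1 read for UT, 59 and 27 for Ni-W, and 41 and 49 for HCl3, and its call in Ni-W was lost without the first Ni-W library. KRT18 rose in HCl3 by 0.64, or 0.39 and not called with those trends removed. The part of these markers' shift in the results was not tested. The leukocyte marker PTPRC did not exceed 0.04 RPKM in any library. The 13 leukocyte and blood markers summed to 1.25 to 1.96 RPKM for UT, 1.17 to 2.21 for Ni-E, 3.16 to 4.44 for Ni-W and 3 to 4.29 for HCl3, and most of each sum was CD14. CD14 rose in Ni-W by 1.28 ± 0.33 log2 units (SE), a call lost without the second UT library (0.96) and without the first Ni-W library (1.02). In HCl3 it rose by 1.23 ± 0.32 (adjusted P value = 0.000828), a call lost without the second UT library (0.91) and without the second HCl3 library (0.96). Both calls were also lost with limma, a linear model, on log2(RPKM + 1) or log2(RPKM + 0.1) (adjusted P value from 0.0752 to 0.0885). The part of CD14-bearing cells in the results was not tested. Whether more RNA per cell or more cells with that RNA lay behind a difference cannot be told apart in bulk libraries.

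HLA-B, HLA-F and B2M rose in Ni-W, while none of the 9 genes was called in Ni-E. At the thresholds given 0 of the 9 genes were called in Ni-E against UT, where 3.77% of 14401 genes tested were called higher and 2.06% lower. In Ni-W against UT, 3 of the 9 were called higher and 0 lower, beside 11.2% of 15419 genes called higher and 4.97% called lower. In HCl3 against UT, 2 of the 9 (HLA-B and HLA-F) were called higher and 0 lower, beside 11.1% and 3.75% of 15714 genes. The median log2 fold change of the 9 was 0.11 for Ni-E, 0.22 for Ni-W and 0.16 for HCl3, beside medians over all genes tested of 0.00 (rounded), 0.01 and 0.01. The 3 comparisons share the UT libraries.

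**Figure D1:**
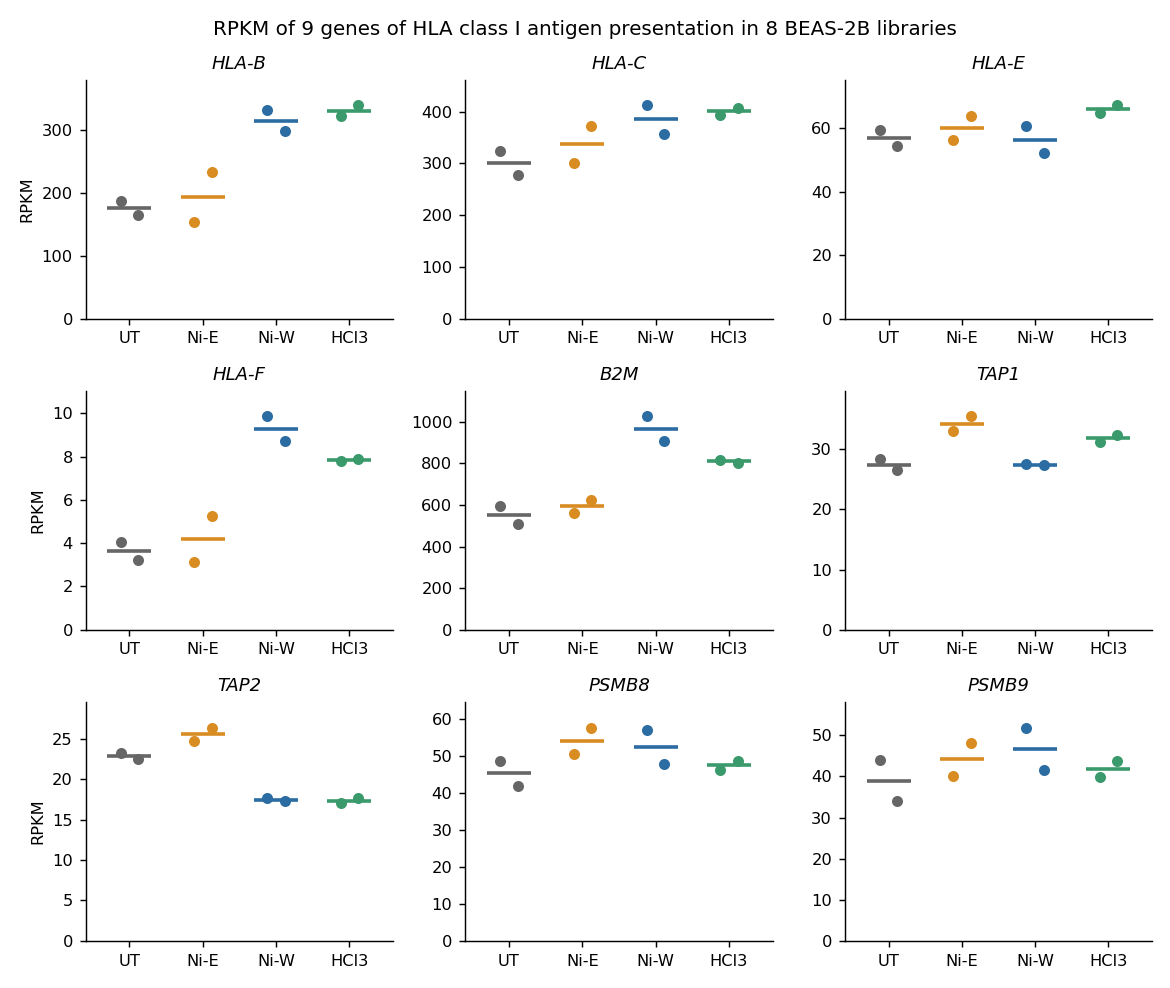
RPKM of the 9 genes (vertical axes, each from 0) in the 4 groups. Points are single libraries and bars are means of 2. HLA-B, HLA-F and B2M lie higher in both Ni-W and both HCl3 libraries than in any UT or Ni-E library, and TAP2 lies lower in them.

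Among the heavy chains, HLA-B had 186 and 165 RPKM for UT, 154 and 234 for Ni-E, 331 and 297 for Ni-W, and 322 and 339 for HCl3. Both the Ni-W and the HCl3 libraries lay above all UT and Ni-E libraries, while the Ni-E libraries enclosed those of UT. HLA-B rose in Ni-W by 0.80 ± 0.11 log2 units (SE), which is 1.74-fold (adjusted P value = 2.80e-12). In HCl3 it rose by 0.86 ± 0.10, or 1.81-fold (adjusted P value = 1.72e-17). With trends of GC content and length removed, the values stood at 0.60 in both, just past 1.5-fold. For this step HLA-B was given the GC content and length of a 3547-base transcript, beside 1.76 kb of exons implied by its counts and RPKM. HLA-C was given a transcript of 1880 bases, beside 1.776 kb. The effect of that mismatch on these values was not tested. Ni-E differed from UT by 0.08, with a 95% interval from -0.23 to 0.39. In order of mean level, UT (176 RPKM) and Ni-E (194) did not differ beyond their spread, nor did Ni-W (314) and HCl3 (330.5).

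HLA-C, the most abundant of these 4 heavy chains by RPKM, had 324 and 278 RPKM for UT, 302 and 372 for Ni-E, 412 and 358 for Ni-W, and 394 and 408 for HCl3. The UT libraries lay below those of Ni-W and HCl3, and the Ni-E libraries overlapped those of UT and of Ni-W. Its log2 fold change was 0.32 ± 0.11 (SE) in Ni-W (adjusted P value = 0.0185) and 0.36 ± 0.10 in HCl3 (adjusted P value = 0.00151), both under 1.5-fold. These differences depended on the scaling, since with GC and length trends removed they were 0.12 in Ni-W and -0.02 in HCl3. Reads with several alignments had been removed by the authors, so that reads from stretches that class I heavy chain genes share, or from alleles unlike the reference, may be missing from these levels.

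Within libraries, HLA-B stood higher relative to HLA-C in Ni-W and HCl3. The ratio of their RPKM values was 0.576 and 0.595 for UT, 0.509 and 0.629 for Ni-E, 0.804 and 0.832 for Ni-W, and 0.818 and 0.831 for HCl3. Every Ni-W and HCl3 library stood above every UT and Ni-E library. HLA-B made up 32.8 ± 0.373% (SD, n = 2) of the summed RPKM of HLA-B, HLA-C, HLA-E and HLA-F for UT, 32.2 ± 3.4% for Ni-E, 41.1 ± 0.591% for Ni-W and 41.0 ± 0.275% for HCl3. With 2 libraries against 2, an exact two-sided permutation test of such a ratio cannot go below P = 0.333, so the ratios are given without a test.

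HLA-E had 59.3 and 54.3 RPKM for UT, 56.4 and 63.9 for Ni-E, 60.7 and 52.3 for Ni-W, and 65.0 and 67.2 for HCl3. The groups overlapped except that both HCl3 libraries lay above all the others. No comparison called it. Its log2 fold change was -0.04 in Ni-W (95% interval -0.27 to 0.18) and 0.16 in HCl3 (95% interval -0.02 to 0.35), or -0.23 and -0.10 with GC and length trends removed.

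HLA-F was the least abundant of the 9 and had the largest fold changes of them in Ni-W and HCl3 against UT. It had 4.07 and 3.20 RPKM for UT, 3.15 and 5.25 for Ni-E, 9.85 and 8.72 for Ni-W, and 7.80 and 7.89 for HCl3. The Ni-W and HCl3 libraries stood above all UT and Ni-E libraries, and the Ni-E libraries again enclosed those of UT. The rise was 2.48-fold in Ni-W, at 1.31 ± 0.22 log2 units (SE, adjusted P value = 2.62e-08). It was 2.08-fold in HCl3, at 1.06 ± 0.21 (adjusted P value = 8.64e-06). These values rest on 120 to 222 reads per library in UT and 389 to 651 in Ni-W. The antisense gene HLA-F-AS1 overlaps HLA-F over 695 bases and had 47 to 132 reads per library. Whether counting used the strand was not stated, so reads of the pair cannot be told apart there.

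B2M, the light chain of class I molecules, had 595 and 510 RPKM for UT, 562 and 625 for Ni-E, 1025 and 907 for Ni-W, and 817 and 804 for HCl3. Both Ni-W libraries were above both HCl3 libraries, which were above the overlapping UT and Ni-E libraries. B2M rose in Ni-W by 0.77 ± 0.11 log2 units (SE), or 1.71-fold (adjusted P value = 1.33e-10). In HCl3 the difference from UT was 1.41-fold, at 0.50 ± 0.10 (adjusted P value = 3.93e-06), under the 1.5-fold required. It was called there without the first UT library, at 0.61, and after removal of GC and length trends, at 0.60. Over all alternatives run, the B2M value in HCl3 lay between 0.23 and 0.61. The summed RPKM of these 4 heavy chains per RPKM of B2M was 0.964 and 0.981 for UT, 0.916 and 1.08 for Ni-E, 0.794 and 0.79 for Ni-W, and 0.965 and 1.02 for HCl3, so that the Ni-W libraries had the lowest values.

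Genes next to B2M were also higher in Ni-W. Within 2.5 Mb of its start, the log2 fold changes of 39 other expressed genes centred on 0.42 (median, Ni-W against UT), with 7 called higher and 0 lower, beside a median of -0.03 over all expressed genes. The median in HCl3 against UT was 0.24, with 3 called higher. Within the 10 Mb window of B2M, the median in Ni-W was likewise 0.42, and B2M less that median stood at 0.35, under 1.5-fold. In HCl3 the median of that window was 0.26, beside 0.50 for B2M. PDIA3, a chaperone of the loading complex, lies in this neighbourhood and rose in Ni-W by 0.68 (adjusted P value = 8.53e-10). With GC and length trends removed PDIA3 stood at 0.47 and was not called. Around HLA-B, 94 other expressed genes had a median of -0.11 in Ni-W (5 called higher and 4 lower) and 93 had -0.12 in HCl3 (5 higher and 1 lower). The 10 Mb window of HLA-F held 51 other expressed genes with a median of 0.10 in Ni-W (11 called higher and 1 lower). In HCl3 it held 53, with a median of -0.06 (11 higher and 1 lower). Of all genes tested, which include genes with fewer reads, 11.2% were called higher in Ni-W and 11.1% in HCl3. The share called among expressed genes alone was not counted.

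**Figure D2:**
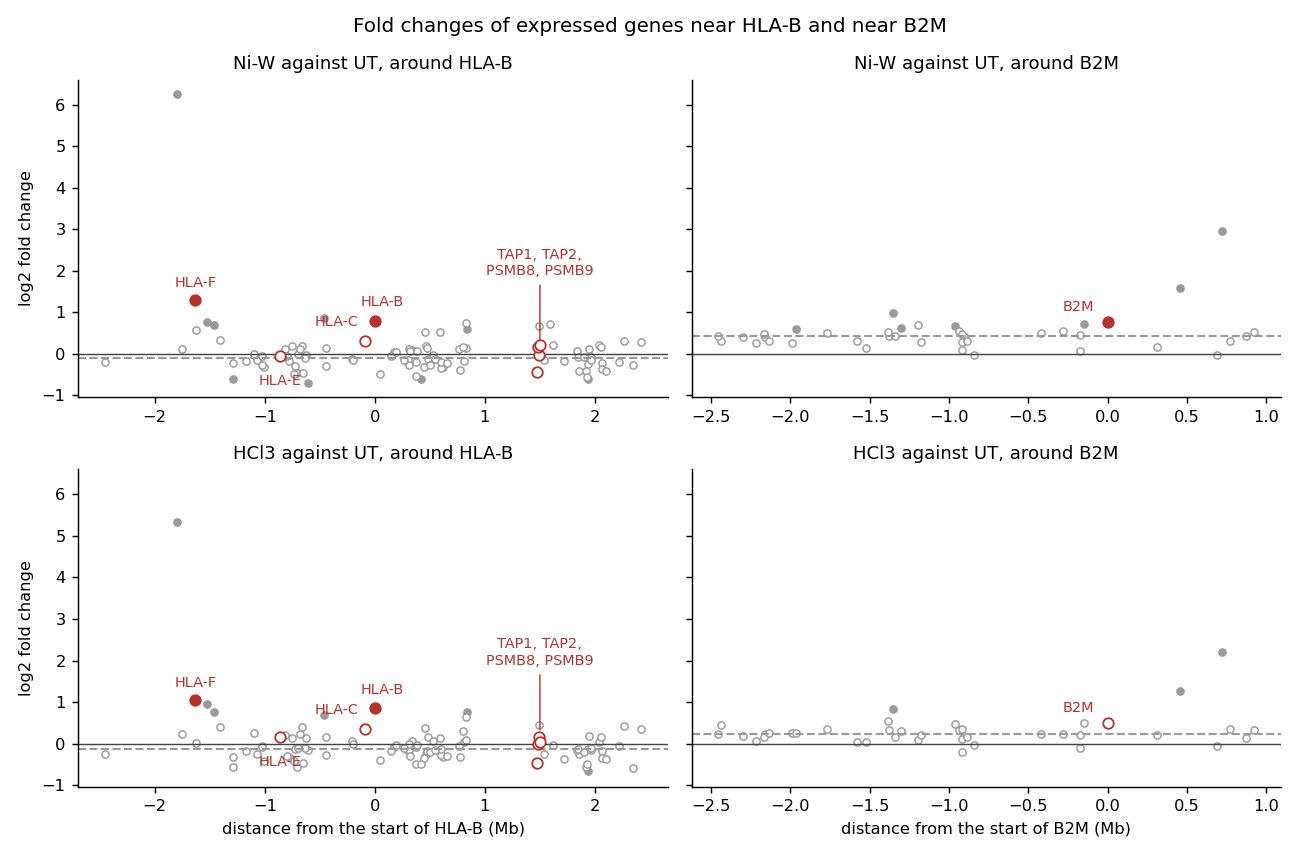
Log2 fold change (vertical axis) of expressed genes against the distance in Mb (horizontal axis) from the start of HLA-B and of B2M, in Ni-W and HCl3 against UT. Red points are members and grey points are other genes, filled where called. Dashed lines are medians of the other genes, at 0.42 around B2M and -0.11 around HLA-B in Ni-W.

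The subunits of the peptide transporter differed in their course. TAP1 had 28.3 and 26.5 RPKM for UT, 33.0 and 35.4 for Ni-E, 27.5 and 27.3 for Ni-W, and 31.2 and 32.3 for HCl3. The Ni-E libraries were highest, without overlap with any other group. No comparison called TAP1, whose log2 fold change was 0.26 for Ni-E (95% interval 0.04 to 0.49, adjusted P value = 0.124), -0.04 for Ni-W (95% interval -0.25 to 0.18) and 0.16 in HCl3 (95% interval -0.04 to 0.35). Removal of GC and length trends took these to 0.09 for Ni-E, -0.26 for Ni-W and -0.16 for HCl3.

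TAP2 had 23.3 and 22.5 RPKM for UT, 24.7 and 26.4 for Ni-E, 17.6 and 17.3 for Ni-W, and 17.0 and 17.7 for HCl3. Both the Ni-W and the HCl3 libraries lay below all others, and the 2 groups overlapped each other. Against UT the log2 fold change was -0.43 ± 0.10 (SE) in Ni-W (adjusted P value = 0.000211) and -0.46 ± 0.09 in HCl3 (adjusted P value = 1.39e-05), both under 1.5-fold. With GC and length trends removed, these values passed 1.5-fold, at -0.72 in Ni-W and -0.71 in HCl3. The RPKM of TAP2 per RPKM of TAP1 was 0.822 and 0.852 for UT, 0.749 and 0.745 for Ni-E, 0.641 and 0.634 for Ni-W, and 0.545 and 0.547 for HCl3, with no overlap between any of the 4 groups.

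The inducible proteasome subunits were called in no comparison. PSMB8, which takes the place of PSMB5, had 48.7 and 41.8 RPKM for UT, 50.4 and 57.6 for Ni-E, 57.0 and 47.8 for Ni-W, and 46.2 and 48.5 for HCl3. PSMB9, which takes the place of PSMB6, had 43.9 and 34.1 RPKM for UT, 40.2 and 48.2 for Ni-E, 51.9 and 41.5 for Ni-W, and 39.9 and 43.6 for HCl3. The groups overlapped for both genes, other than PSMB8 in Ni-E, which lay above UT and HCl3. In Ni-W the log2 fold change was 0.17 for PSMB8 (95% interval -0.09 to 0.43) and 0.22 for PSMB9 (95% interval -0.08 to 0.52), and the interval for HCl3 was -0.23 to 0.23 for PSMB8. The antisense gene TAPSAR1, at 60 to 205 reads per library, overlaps TAP1 over 1291 bases and PSMB8 over 849, and reads of these pairs cannot be told apart.

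The constitutive partner of PSMB9 was lower in Ni-W and HCl3 than in UT. PSMB6 had 418.2 and 311.6 RPKM for UT, 334.6 and 336.4 for Ni-E, 258.1 and 233.7 for Ni-W, and 216.8 and 236.4 for HCl3. It fell by 0.60 log2 units in Ni-W (adjusted P value = 5.23e-05) and by 0.74 in HCl3 (adjusted P value = 6.31e-08). Both calls were lost without the first UT library, at -0.38 in Ni-W and -0.52 in HCl3, and that in Ni-W also without the second Ni-W library (-0.54) and with GC and length trends removed (-0.58). Limma at either pseudocount called neither (adjusted P value from 0.0751 to 0.123). The RPKM of PSMB9 per RPKM of PSMB6 was 0.105 and 0.109 for UT, 0.12 and 0.143 for Ni-E, 0.201 and 0.177 for Ni-W, and 0.184 and 0.185 for HCl3. PSMB8 per PSMB5 was 0.336 and 0.329 for UT, 0.343 and 0.408 for Ni-E, 0.468 and 0.424 for Ni-W, and 0.401 and 0.399 for HCl3. PSMB10 per PSMB7, the remaining pair of this kind, was 0.107 and 0.0803 for UT, 0.0835 and 0.111 for Ni-E, 0.0778 and 0.067 for Ni-W, and 0.0823 and 0.0869 for HCl3, so that its HCl3 values lay within the range of UT.

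**Figure D3:**
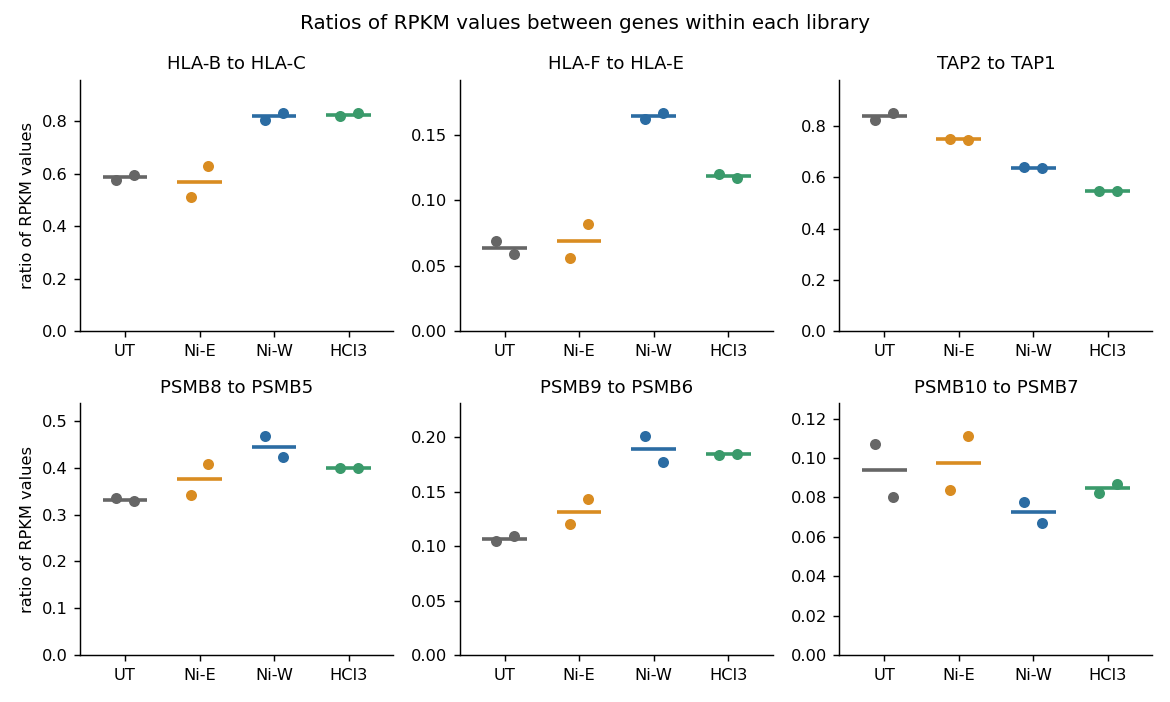
Ratio of the RPKM values of the genes named above each panel (vertical axes, from 0) in the 4 groups. Points are single libraries and bars are means of 2. HLA-B to HLA-C and PSMB9 to PSMB6 lie higher in Ni-W and HCl3 than in UT, and TAP2 to TAP1 lies lower.

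Ni-W and HCl3 were also compared with exposed cells. Ni-W stands for 1 clonal population and no untreated clone was among the groups. Wash-out, the clone and the time in culture therefore cannot be told apart in these tests or in those against UT. The P values cover the spread between libraries of a group and not that between washed-out populations. In Ni-W against Ni-E, 3 of the 9 genes were called higher and 0 lower, beside 11.7% and 8.84% of 15939 genes. HLA-F rose by 1.14 ± 0.23 log2 units (SE, adjusted P value = 6.23e-06) and B2M by 0.71 ± 0.09 (adjusted P value = 9.60e-13). After subtraction of its window median the B2M value was 0.24. HLA-B rose by 0.71 ± 0.29 (adjusted P value = 0.0357), a call that was lost without the first Ni-E library (0.45), without the first Ni-W library (0.63, adjusted P value = 0.384) and without the second Ni-W library (0.78, adjusted P value = 0.259). TAP2 differed by -0.56 ± 0.09 (adjusted P value = 2.72e-08) and TAP1 by -0.31 ± 0.10 (adjusted P value = 0.00437), both under 1.5-fold. Without the first Ni-E library TAP2 reached -0.60 and was called.

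In HCl3 against Ni-E, 2 of the 9 were called higher and 1 lower, beside 10.4% and 6.8% of 15904 genes. HLA-B rose by 0.76 ± 0.28 log2 units (SE, adjusted P value = 0.0195) and HLA-F by 0.88 ± 0.23 (adjusted P value = 0.000624). TAP2 fell by 0.59 on the log2 scale (adjusted P value = 3.32e-11), a change that lies at the 1.5-fold threshold itself. These calls depended on single libraries. Without the first HCl3 library 0 of the 9 were called, and without the first Ni-E library or the second HCl3 library TAP2 alone was. Without the first HCl3 library the values were 0.81 for HLA-B, 0.91 for HLA-F and -0.57 for TAP2, and without the second they were 0.73 for HLA-B and 0.87 for HLA-F. Without the first Ni-E library HLA-B was at 0.51 and HLA-F at 0.60, and without the second TAP2 was at -0.56.

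In HCl3 against Ni-W, 0 of the 9 were called, beside 3.12% of 14885 genes called higher and 1.67% called lower. At an unadjusted P value under 0.05, DESeq2 counted 3 of the 9 here and 1 in Ni-E against UT. The quasi-likelihood test of edgeR counted 4 and 1, limma on log2(RPKM + 1) counted 2 and 1, and neither called a gene in these comparisons. The share of all genes at that unadjusted threshold was not counted, so these counts show nothing particular to the 9. B2M was lower in HCl3 at -0.27 ± 0.07 log2 units (SE, adjusted P value = 0.00379), under 1.5-fold. For HLA-B the difference was 0.06 with a 95% interval from -0.09 to 0.20, and for TAP2 it was -0.02 with an interval from -0.17 to 0.13. For HLA-F it was -0.25, with an interval from -0.56 to 0.06.

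**Figure D4:**
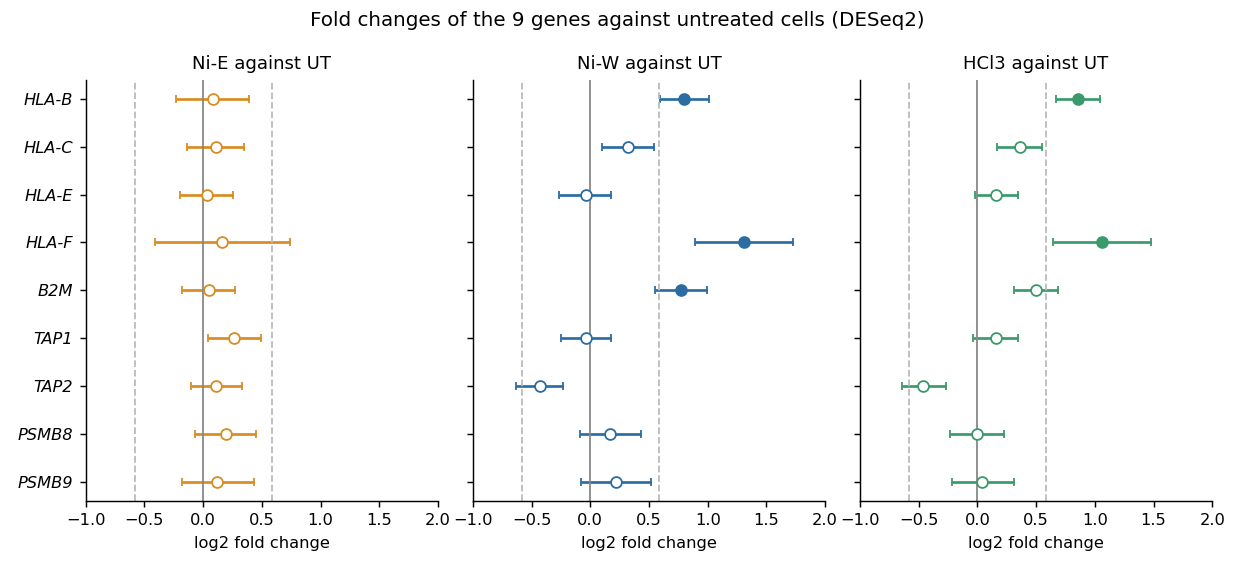
Log2 fold change (horizontal axis) of the 9 genes against UT in Ni-E, Ni-W and HCl3. Points are DESeq2 estimates with 95% intervals, filled where called, and dashed lines mark 1.5-fold. In Ni-E no point is filled, in Ni-W HLA-B, HLA-F and B2M are, and in HCl3 HLA-B and HLA-F are.

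Other genes of the pathway were counted in lists, whose median log2 fold changes for Ni-W were 0.11 for class I chains and relatives, 0.14 for peptide loading and trimming, -0.05 for the constitutive 20S proteasome, 0.14 for transcriptional regulators and 0.02 for interferon signalling, beside 0.01 over all genes tested. Of the 14 other class I chains and relatives tested in Ni-W, 4 were called higher, 0 lower and 10 neither. FCGRT, the heavy chain of the neonatal Fc receptor, which also pairs with B2M, rose from 0.47 and 0.29 RPKM in UT to 4.34 and 3.32 in Ni-W, a rise of 3.33 ± 0.36 log2 units (SE). It had 2.38 and 2.44 RPKM in HCl3 and 0.16 and 0.28 in Ni-E. HLA-G, a non-classical chain, rose by 0.78 in Ni-W and by 0.95 in HCl3 (adjusted P value = 0.0139 and 0.000568). The call in Ni-W was lost without any 1 of its 4 libraries (0.58 to 0.95) and with limma at either pseudocount (adjusted P value = 0.0707 and 0.0715), and that in HCl3 without either HCl3 library (1.02 and 0.89). MR1, which presents vitamin metabolites, rose by 0.72 in Ni-W, or 0.41 and not called with GC and length trends removed, and CD1D, which presents lipids, was called higher at no more than 0.27 RPKM, a call lost without the first Ni-W library (3.88, adjusted P value = 0.178). In Ni-E 2 of 12 were called higher. One was PROCR, the protein C receptor, at 1.07. The other was ULBP1, a ligand of the natural killer receptor NKG2D, which went from 1.75 and 1.82 RPKM for UT to 4.3 and 5.76 for Ni-E and had 1.36 and 1.47 for Ni-W. Both calls in Ni-E were lost with limma at either pseudocount (adjusted P value from 0.0783 to 0.0985). In HCl3, 2 of 14 were called higher and 1 lower, the last being ULBP1 at -0.62 (adjusted P value = 0.0372), which was lost without any 1 library (-0.54 to -0.72).

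Genes of peptide loading and trimming gave 0 calls of 15 for Ni-E and for HCl3 and 1 of 15 for Ni-W. This was PDIA3, at 0.68, or 0.47 and not called with GC and length trends removed. TAPBP, which holds the heavy chain to the transporter, differed by 0.12 in Ni-W (95% interval -0.13 to 0.38), and ERAP1, a trimming peptidase, by 0.28 (95% interval 0.05 to 0.51, adjusted P value = 0.0509). ERAP2, another trimming peptidase, differed by 0.35 (adjusted P value = 0.00855) and SPPL2A by 0.55 (adjusted P value = 2.63e-05), both under 1.5-fold. The 15 genes ranged from -0.22 to 0.68 in Ni-W. The 6 other genes of the inducible proteasome and its activator were called in neither direction in any of the 3 comparisons with UT, with medians of -0.08 for Ni-E, -0.08 for Ni-W and -0.12 for HCl3. Among the 14 constitutive 20S subunits, 1 was called lower for Ni-W and 1 for HCl3, PSMB6 both times, and 0 for Ni-E.

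Among 15 transcriptional regulators of these genes, 0 were called for Ni-E and for Ni-W and 1 was called higher for HCl3. This was IRF9, part of the interferon-stimulated factor ISGF3, with 5.03 and 5.10 RPKM for UT, 4.20 and 6.52 for Ni-E, 7.03 and 6.04 for Ni-W, and 10.7 and 10.8 for HCl3. It rose in HCl3 by 1.03 ± 0.16 log2 units (SE, adjusted P value = 3.52e-09). NLRC5, the coactivator of class I genes, lay between 1.51 and 2.04 RPKM in all libraries and differed by 0.14 in Ni-W, with a 95% interval from -0.22 to 0.50. IRF1 differed by 0.29 in Ni-W (adjusted P value = 0.0775) and by 0.44 in HCl3 (adjusted P value = 0.000491), both under 1.5-fold. With GC and length trends removed NLRC5 stood at -0.22 in Ni-W, IRF1 at 0.13 in HCl3 and IRF9 at 0.71 in HCl3, still called.

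Of 9 interferon receptor and signalling genes, 0 were called in Ni-E. JAK2, a kinase of the interferon gamma receptor, fell by 0.78 log2 units in Ni-W (adjusted P value = 6.60e-05), a call lost with limma at either pseudocount (adjusted P value = 0.0562 and 0.0538). JAK2 was also lower than UT in Ni-E, at -0.56 (adjusted P value = 0.023), and in HCl3, at -0.49, both under 1.5-fold. Ni-W differed from Ni-E by -0.23 in this gene (adjusted P value = 0.297). SOCS1, an inhibitor of that signalling, rose by 1.66 in HCl3 (adjusted P value = 0.014), from 0.37 and 0.34 RPKM in UT to 1.40 and 0.92, and that call was lost without any 1 of the libraries (1.33 to 1.93) and with GC and length trends removed (1.13). The interferons themselves were near the limit of detection. Their 8 genes summed to at most 0.3 RPKM in any library, and IFNG, IFNA1, IFNK, IFNL2 and IFNL3 had 0 reads in all 8 libraries, which allows up to 3 reads per library.

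Class II presentation genes, which load extracellular peptides, were at much lower levels, with 14 genes summing to 5.51 to 14 RPKM per library. Of those tested, 2 of 7 were called higher in Ni-E (HLA-DRB1 and HLA-DMA, both lost without any 1 library), 3 of 10 higher in Ni-W and 1 of 9 lower in HCl3. CD74, the invariant chain, had 2.99 and 2.12 RPKM for UT, 2.03 and 2.63 for Ni-E, 7.02 and 6.35 for Ni-W, and 0.33 and 0.56 for HCl3. It rose in Ni-W by 1.36 ± 0.24 log2 units (SE) and fell by 2.69 on that scale in HCl3, so that HCl3 was 16.6-fold lower than Ni-W (adjusted P value = 1.75e-40). Called for Ni-W as well were HLA-DRB1, with 0 and 0 reads for UT and 30 and 18 for Ni-W, and HLA-DRB5, with 0 and 0 reads for UT and 22 and 9 for Ni-W. These 2 genes are near-identical paralogs, so the split of reads between them is uncertain. HLA-DRA, the alpha chain that pairs with the products of both, had 0 reads in all 8 libraries. The call of HLA-DRB1 was lost without the first Ni-W library (adjusted P value = 0.0777) and that of HLA-DRB5 without any 1 library.

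Within the 9 genes, Pearson correlations of log2 normalized counts over the 8 libraries were 0.977 between HLA-B and HLA-F, 0.971 between HLA-F and B2M, and 0.913 between PSMB8 and PSMB9. TAP2 ran against the first of these, at -0.881 with HLA-B. The 5 other genes closest to the mean standardized profile of the 9, out of 12015 expressed genes, were CEBPD (r = 0.988), TECR (0.959), MXD3 (0.957), RARRES3 (0.957) and LINC00476 (0.955). The 9 genes themselves had r from -0.388 (TAP2) to 0.915 (HLA-C) with that mean, with TAP1 at 0.328 and B2M at 0.659. The mean therefore averages over genes of unlike course and does not stand for each of the 9. CEBPD had 22.6 and 11.3 RPKM for UT, 16.9 and 36.1 for Ni-E, 35.0 and 21.6 for Ni-W, and 27.4 and 35.5 for HCl3, so that its replicates of UT, Ni-E and Ni-W differed in the same order as those of the 9 genes. The libraries differ in depth and come from 4 groups, and these correlations are descriptions over 8 points.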

How the data were processed

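Gene expression was measured by RNA-Seq (TruSeq kit) in 8 BEAS-2B libraries, grouped by their labels, with 2 biological replicates per group. Reads had been aligned to hg19 with STAR 2.4 and processed in the BioWardrobe system, reads with several alignments being removed. The authors deposited read counts per RefSeq gene and RPKM values derived from them, one table per library without pooling. Whether the counting used the strand is not given in the sources used here.

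The deposited counts were tested with DESeq2 1.42.0 in R 4.3.3 (size factors by median of ratios, Wald test, two-sided, Benjamini-Hochberg adjustment over all genes tested), with only the 4 libraries of a pair of groups in each fit, following the thresholds of the study (1.5-fold, adjusted P value under 0.05). With 2 libraries per group, P values rest on a spread shared across genes. RPKM values were used for levels and ratios. Intervals of fold changes are 95% Wald intervals. A count of 0 allows up to 3 reads, and such limits cover counting error only, since reads carried no molecular identifiers.

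Members, lists and tests were chosen with earlier results of these data known. All 9 members are named. Some genes of the pathway are not reported here and are left out of the lists. Other genes of the lists are named where a comparison called them, with their values, or as a partner, receptor or regulator of a member after their values were seen. A few are named, also after their values were seen, as a partner or close relative of another named gene. The 5 genes most like the members were taken by Pearson correlation among genes whose normalized counts averaged 50 or more. Neighbourhoods are the genes with such a count within 2.5 Mb, in hg19. GC content and length came from the longest GENCODE transcript of each gene and were had for 99.1% of 12015 expressed genes, members included. That transcript need not match the exons counted. For B2M it had 2329 bases, beside 1.105 kb implied by counts and RPKM, while for TAP2 it had 6194, beside 6.208 kb. Upstream sequences were taken from RefSeq GRCh38.p14 and no coordinates were carried between builds.

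Alternatives were the quasi-likelihood test of edgeR 4.0.16, limma 3.58.1 on log2(RPKM + 1) or with a pseudocount of 0.1, TMM size factors, a mean count of at least 10, all 8 libraries in one fit, the replicate suffix as a block, GC and length trends removed, subtraction of the median of the 10 Mb window, and each replicate left out in turn. The crossed replicate block was added after the data had been seen. Scripts were tested on simulated data. Figures were drawn with matplotlib in Python. Chromatin data of the study were not analysed here.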

Additional observations from a re-analysis of the deposited data

Results flagged for a closer look

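The effects of washed-out and of exposed cells against UT differed for some of the 9 genes when the groups were tested against each other. Ni-W stood above Ni-E for HLA-B by 0.71 on the log2 scale, for HLA-F by 1.14 and for B2M by 0.71. HCl3 stood above Ni-E for HLA-B by 0.76 and for HLA-F by 0.88, and below it for TAP2 at -0.59. The Ni-E libraries differed between themselves in HLA-B (154 and 234 RPKM) and HLA-F (3.15 and 5.25 RPKM), and the part of that spread was not tested.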

How the results depend on the processing

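Over 14 or 15 alternatives per comparison, the 54 fold changes of the 9 genes kept their side of the call in 747 of 783 values, lost a call in 26 and gained one in 10, and no called value changed sign. Most of the 54 were not called at the outset, so most of the 747 are values that stayed uncalled. In Ni-W against Ni-E, HLA-B lost its call in 6 of 15 alternatives, and HLA-F and B2M in 1 of 15 each. In HCl3 against Ni-E, HLA-B and HLA-F lost it in 5 of 14 each and TAP2 in 7 of 14. Against UT, B2M in Ni-W lost it in 1 of 14, and HLA-B and HLA-F in 0. Ni-E against UT and HCl3 against Ni-W gave 0 calls under every alternative run. Ni-W against UT gave 3 or 4 calls, other than 2 after window subtraction, when B2M stood at 0.35. With limma on log2(RPKM + 0.1), Ni-W against Ni-E gave 1 call. HCl3 against Ni-E gave 0 calls with limma at either pseudocount. HCl3 against UT gave 4 calls with GC and length trends removed, with or without the replicate block. Leaving out single libraries gave 0 to 2 calls in HCl3 against Ni-E, 2 to 3 in Ni-W against Ni-E and 2 to 3 in HCl3 against UT. In these fits a group left with a single library is assumed to vary like the other.

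Same-suffix libraries did not deviate together throughout (r between -0.163 and 0.211), and with 2 pairs the suffixes do not establish a pairing. With the replicate block, Ni-W against Ni-E gave 2 calls in place of 3, HLA-B being lost (0.73, adjusted P value = 0.0764), and no other count moved. The crossed block gave 0 calls in Ni-E against UT, 3 in Ni-W against Ni-E and 2 in HCl3 against UT. The causes of these differences were not tested. HLA-F, at 120 to 651 reads, had the fewest reads of the 9.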
